A study of Mus musculus with 32 samples.

Results

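The mouse genome carries a large family of genes for zinc finger proteins of the Krüppel-associated box (KRAB) type, and many of those numbered Zfp900 to Zfp999 belong to recently expanded tandem families. A KRAB zinc finger protein contacts DNA through an array of C2H2 fingers, in each of which a pair of cysteines and a pair of histidines hold a zinc ion. The KRAB domain at the amino end binds the co-repressor TRIM28 (KAP1), which brings the histone methyltransferase SETDB1, heterochromatin proteins and histone deacetylases to the bound site. The best known targets of the class are retrotransposons and imprinted regions, and the targets of most single members are not known.

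The members described here were all 63 genes whose symbol was Zfp9 followed by 2 further digits and nothing else (Zfp900 to Zfp999), out of 49671 genes in the count table. Their expression was measured by RNA-seq of the vomeronasal neuroepithelium, the sensory tissue of the mouse pheromone organ, in 32 mice of 42 days. Each of 4 inbred strains, C57/BL6 (B6), 129S6/SVEV (129), SJL/J (SJL) and SWR/J (SWR), was represented by 8 mice, of which 4 were male and 4 female, with 1 library per mouse and no treatment. All libraries were aligned to the GRCm38 reference, which is of C57BL/6J origin. In the other strains a lower level and a poorer match of the reads to the reference therefore cannot be told apart. Whether the reference also affected genes that were higher in the other strains was not tested.

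Reads on genes numbered 5106398 to 18640871 per library, and reads on the 63 members numbered 4124 to 14107 per library. Summed over all members, the members had a median of 748 rpm (reads per 1000000 reads on genes) for 129, 813 for B6, 859 for SJL and 872 for SWR. The labelled tissue carried its defining transcripts in every library. Omp, the olfactory marker protein of mature sensory neurons, ranged from 14488 to 23292 normalized counts, and Xntrpc, the annotation that carried the reads of the vomeronasal cation channel, from 670 to 1425, whereas Trpc2 itself was listed at 0 throughout. The libraries differed in reads on 247 genes of families used mainly in other tissues (keratin-associated proteins, defensins, placental and seminal proteins), with medians of 0.531 rpm for 129, 7.37 for B6, 5.08 for SJL and 4.22 for SWR, and a highest value of 32.5 rpm in B6 replicate 4. Of the marker lists for other cell types, the summed normalized counts of 5 macrophage markers, each with a read in every library, were 405 to 589.6 for 129, 929 to 1233 for B6, 804 to 1006 for SJL and 534 to 785 for SWR, and those of 5 T lymphocyte markers were 5.81 to 17.3 in 129, below the 25.2 to 72.4, 23.8 to 43.1 and 24.5 to 52.0 of B6, SJL and SWR. Skeletal muscle markers were lower in 129 (2.19 to 9.06) than in B6 (9.54 to 29.5). Only 1 of the 5 T lymphocyte markers and 1 of the 4 skeletal muscle markers had a read in every library, so these sums are near the floor. The summed markers of sustentacular cells were lower in SJL (6343 to 9391) than in 129 (10586 to 18055) and SWR (11389 to 16688), those of main olfactory neurons higher in SJL (9700.4 to 11490.2) than in B6 (6967 to 8510.3) and SWR (7434 to 9473), and those of vomeronasal neurons lower in B6 (38718 to 45423) than in SWR (46204 to 56685). The part of these cells in the strain differences below was not tested. The libraries 129 replicate 1 and B6 replicate 2 stood apart by gland and ciliated cell markers, with summed normalized counts of 137001 and 149684 for 4 gland genes, against at most 65544.5 in any other library, and 5999.9 and 3759 for 5 ciliated cell genes, against at most 2072. In bulk tissue, fewer cells of a type and less RNA per cell cannot be told apart.

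All 63 members were found in the GENCODE M21 annotation of GRCm38. They fell into 25 runs, taking members whose starts lay at most 1 Mb apart as 1 run, of which 19 held a single gene. The largest run held 16 members between 145510759 and 147848366 on chromosome 4. A run of 10 lay on chromosome 17 (21567008 to 22867134) and a run of 9 near the end of chromosome 2 (175372436 to 178078476). The others held 4 genes on chromosome 7, 3 on chromosome 8 and 2 on chromosome 13. Of the 62 members with a coding sequence, 53 held a residue pattern typical of the KRAB domain within the first 120 residues. The median number of C2H2 finger matches (C, 2 to 4 residues, C, 12 residues, H, 3 to 5 residues, H) was 11, with a range from 0 in 3 members to 21 in Zfp974. The remaining member, Zfp939, was annotated as a transcribed pseudogene.

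Finger coding sequence is shown for 7 of the members that differed between strains, because reads from such repeats can match several members. Each line gives a complete finger directly followed by the common linker between fingers, which need not be the first finger match of the protein. It holds 78 bases of translated sequence in a single exon of GRCm38, read 5′ to 3′ on the coding strand from GENCODE M21 transcripts. Capitals mark the codons of the zinc-binding cysteines and histidines.
Zfp990 (chr4:145537325-145537402, plus strand): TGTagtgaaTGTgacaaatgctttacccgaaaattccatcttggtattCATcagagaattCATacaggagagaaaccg
Zfp992 (chr4:146466547-146466624, plus strand): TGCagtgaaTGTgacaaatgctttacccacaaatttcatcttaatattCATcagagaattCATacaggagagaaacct
Zfp991 (chr4:147178891-147178968, plus strand): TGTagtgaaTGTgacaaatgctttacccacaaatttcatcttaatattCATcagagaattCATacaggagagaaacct
Zfp982 (chr4:147512749-147512826, plus strand): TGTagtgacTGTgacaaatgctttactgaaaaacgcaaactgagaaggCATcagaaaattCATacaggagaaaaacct
Zfp984 (chr4:147755514-147755591, minus strand): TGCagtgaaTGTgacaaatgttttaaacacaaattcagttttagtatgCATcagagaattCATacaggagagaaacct
Zfp960 (chr17:17087503-17087580, plus strand): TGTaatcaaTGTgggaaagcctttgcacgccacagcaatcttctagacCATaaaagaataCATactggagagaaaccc
Zfp949 (chr9:88569270-88569347, plus strand): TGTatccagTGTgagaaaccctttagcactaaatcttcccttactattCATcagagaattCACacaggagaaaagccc

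The stretches of Zfp991 and Zfp992 differed at 1 of 78 bases, and those of Zfp990 and Zfp992 at 7. Zfp960, on chromosome 17, differed from the Zfp992 stretch at 27 bases and from that of Zfp949, on chromosome 9, at 32. Over their whole coding sequence of 1722 bases, Zfp991 and Zfp992 differed at 8 positions. Zfp966, Zfp967 and Zfp969, in the chromosome 2 run, had identical coding sequences of 1458 bases.

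The same property was measured over whole genes as the share of exon windows of 1 read length that also occurred in the transcripts of another gene. It was 0 for 20 members and above 60% for 11. Its median was 51.9% for the 15 members that did not pass the low-count filter and 1.12% for the 48 that did. Reads that fit several places were not assigned to a gene. Where the shared windows lie at another place in the genome, counts rest mainly on the remaining part of the transcript. The measure also counts windows shared with a gene annotated over the same bases. Zfp935 had 99.2% of its windows shared, most often with Gm49359, which overlapped it on the same strand, and yet had 4002 reads. Zfp963 likewise shared windows with Gm20422, which overlapped it on the same strand.

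The strains were compared first, to ask which members differ with genetic background. With edgeR's quasi-likelihood test on the counts, 9 of the 48 members tested (18.8%) passed a fold change above 2 and an FDR below 0.05 in at least 1 of the 6 pairs of strains, beside 19.8% of all 18382 genes tested. DESeq2's test, run without that filter, called 17 of 61 members (27.9%) beside 16.9% of genes, and the edgeR test without the filter called 17 of 61 beside 28.6%. In edgeR's filtered test the called share of members was near that of genes at large. The median of the largest absolute log2 fold change over the pairs was 0.46 for the members and 0.44 for all genes. The 9 were Zfp990, Zfp979, Zfp982, Zfp960, Zfp972, Zfp984, Zfp992, Zfp991 and Zfp949. Without 129 replicate 1 and B6 replicate 2 the test called 11 of 50 members (22.0%) beside 21.8% of all genes, the further ones being Zfp985 (LFC, the log2 fold change, of SJL over 129 1.95, FDR 0.0018) and Zfp981 (SWR over B6 -1.82, FDR 0.021), which did not pass the low-count filter with all 32 libraries. Leaving out single libraries gave 11 members for 21 of the 32, 10 for 10 and 9 for 1, beside 19.8% to 21.7% of all genes. In these fits 49 or 50 members passed the low-count filter, in place of 48 with all libraries, whichever library was left out. Without the limit on fold, 35 of 48 members (72.9%) had an FDR below 0.05 in at least 1 pair, beside 80.1% of all genes.

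By pair, 4 members were called between B6 and 129 (11.1% of all genes tested), 4 between SJL and 129 (8.38%), 3 between SWR and 129 (7.73%), 9 between SJL and B6 (7.99%), 7 between SWR and B6 (8.05%) and 1 between SWR and SJL (4.5%). All 9 called members were called in a pair with B6, and 5 also in a pair without it. The same split was not counted for all genes, so it cannot be read as a trait of the members. The pairs share libraries and are not independent of each other.

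**Figure D1:**
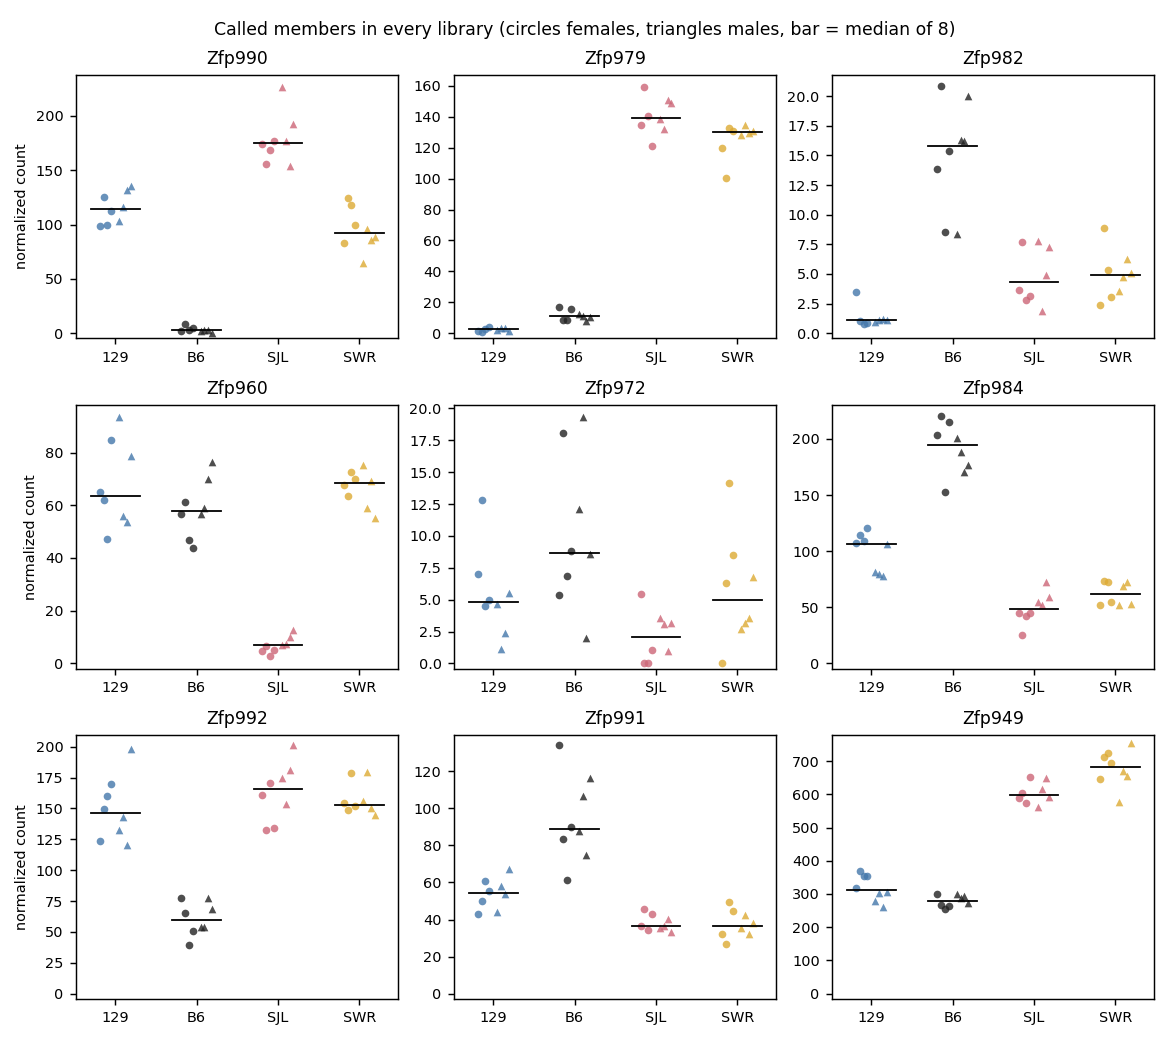
Normalized counts (linear axes from 0) of the 9 called members in each of the 32 libraries, by strain, with circles for females, triangles for males and bars at the median of 8. B6 lies near 0 for Zfp990 and SJL lies near 0 for Zfp960, while for Zfp979 both 129 and B6 lie far below SJL and SWR.

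Of the 9, 6 lay in the chromosome 4 run, where 8 of 16 members were tested. DESeq2, without the low-count filter, called 12 of the 16, beside 16.9% of all genes in any place. The further ones, Zfp980, Zfp981 and Zfp985 to Zfp988, had failed the filter, with at most 25 reads in any library. The edgeR test without the filter called the same members of this run except Zfp981, beside 28.6% of all genes. The other genes lying wholly inside the span of this run were called in 4 of 6 tested. Outside the run, 3 of 40 tested members were called. In the chromosome 17 run of 10 members, all of which were tested, edgeR called 0 and DESeq2 also called 0, beside 19.8% and 16.9% of all genes. An FDR below 0.05 in at least 1 pair, with smaller folds, was found for 9, beside 80.1% of all genes. Of the other genes inside that span, 1 of 10 tested was called.

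Zfp990 (chromosome 4, 145510759 to 145539188, plus strand), a KRAB protein gene with 13 fingers, had a difference of the same size as Zfp979 below, and these were the widest among the members. In B6 its normalized counts ranged from 0 to 8.33 with a median of 2.80. They were 98.8 to 135 with a median of 114 in 129, 154 to 227 with a median of 175 in SJL, and 64.7 to 124 with a median of 92.3 in SWR. No B6 library overlapped any library of another strain, and 21 reads in all fell on the gene in the 8 B6 libraries. The LFC was 5.90 ± 0.213 (SE) for SJL over B6 (FDR 4.03e-22), 4.98 ± 0.224 for SWR over B6 and -5.27 ± 0.221 for B6 over 129. SJL was also above 129 by 0.63 (FDR 0.00015), whereas SWR and 129 did not pass the test against each other (LFC -0.29, FDR 0.07). With the reads on families of other tissues as a covariate, SJL over 129 was 0.21 (FDR 0.455) and SWR over 129 was -0.64 (FDR 0.00388), while SJL over B6 was 5.96. Those reads ran from 0.327 to 1.74 rpm in 129 and from 2.57 to 11.1 rpm in SJL, without overlap. In this fit the covariate and the difference between SJL and 129 therefore cannot be told apart. Only 1.22% of its exon windows occurred in another gene.

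Zfp979 (147611937 to 147642513, minus strand), with a KRAB pattern and 3 finger matches, set SJL and SWR apart from the other strains. Its counts ranged from 1.07 to 4.12 with a median of 2.43 in 129 and from 8.11 to 17.1 with a median of 10.8 in B6. In SJL they ranged from 121 to 159 with a median of 139.5, and in SWR from 100.2 to 135 with a median of 130.3. The ranges of 129 and B6 did not overlap each other or those of SJL and SWR, which overlapped. The LFC was 5.76 ± 0.166 for SJL over 129 (FDR 9.64e-25), 3.64 ± 0.134 for SJL over B6 and 2.12 ± 0.228 for B6 over 129. The gene overlapped Gm13155 on the same strand, where shared reads would be left uncounted.

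Zfp982 (147492417 to 147513486, plus strand), with 7 fingers, was a gene of few reads that was highest in B6. It had 0.749 to 3.49 normalized counts for 129 (median 1.08), 8.38 to 20.8 for B6 (15.8), 1.88 to 7.77 for SJL (4.28) and 2.37 to 8.88 for SWR (4.89). The 8 libraries of 129 held 10 reads in all. The LFC of B6 over 129 was 3.44 ± 0.358 (FDR 8.74e-10), and B6 also stood above SJL (LFC of SJL over B6 -1.57 ± 0.282) and SWR (-1.59 ± 0.283), although the SWR and B6 ranges touched. Its highest value fell in B6 replicate 4, the library with the most reads on families of other tissues. With those reads as a covariate the LFC of B6 over 129 was 3.03 ± 0.477 (FDR 8.04e-06), and without the 5 libraries highest in them it was 3.27. The 2 strains overlapped little in those reads, with at most 1.74 rpm in 129 and at least 1.09 in B6, which limits the covariate fit.

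Zfp984 (147753974 to 147809788, minus strand), with 11 fingers, was likewise highest in B6 but at a higher level. Its counts were 153 to 221 in B6 (median 195), 77.4 to 120.3 in 129 (median 107), 52.1 to 73.6 in SWR (61.9) and 25.1 to 72.9 in SJL (48.6). B6 overlapped no other strain, 129 overlapped neither SJL nor SWR, and SJL and SWR overlapped. The LFC was -1.94 ± 0.137 for SJL over B6 (FDR 7.64e-14), -1.61 ± 0.134 for SWR over B6 and -1.003 ± 0.1403 for SJL over 129, the last at the edge of the fold limit and not called with DESeq2 size factors in place of TMM. B6 over 129, at 0.93, stayed inside the limit with an FDR of 2.9e-07.

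Zfp991 and Zfp992, the near-identical pair whose fingers are printed above, had opposite patterns in B6. Zfp992 (146449023 to 146470292) had 39.2 to 77.8 normalized counts in B6 (median 59.6), below every library of 129 (120.3 to 198, median 146), SJL (132 to 201, median 166) and SWR (145 to 179.7, median 153). Its LFC was -1.30 ± 0.119 for B6 over 129 (FDR 3.9e-11) and 1.42 ± 0.118 for SJL over B6. Zfp991 (147132038 to 147180579) had 61.4 to 134 counts in B6 (median 88.8), above every library of SJL (33.4 to 45.4, median 36.3) and SWR (26.6 to 49.5, median 36.8). The 129 libraries, at 43.0 to 67.5 (median 54.4), overlapped all of these. The LFC of SWR over B6 was -1.32 ± 0.139 (FDR 1.31e-09) and that of SJL over B6 -1.31 ± 0.139. The test against a fold change of 2 itself (glmTreat) did not call SWR over B6 (FDR 0.0849). With the reads on families of other tissues as a covariate, B6 over 129 was also called (1.17, FDR 5.92e-06), beside 0.80 without it. Those reads were 0.327 to 1.74 rpm in 129 and 1.09 to 32.5 rpm in B6, so the covariate and strain can hardly be told apart here. Of the exon windows, 65.3% in Zfp991 and 24.8% in Zfp992 occurred in another gene, most often in Znf41-ps for Zfp991 and in Zfp991 for Zfp992. Zfp991 also overlapped Gm26624 on the same strand. Whether reads of Zfp991 were placed on Zfp992 or the reverse in some strains was not tested, and the pair was not summed. The opposite patterns may therefore not be independent of each other.

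The remaining members of the chromosome 4 run that passed the filter were not called. Zfp933 (147822986 to 147848366), with 12 fingers and no window shared with another gene, had 480.2 ± 32.5 normalized counts for 129, 412 ± 26.8 for B6, 559 ± 27.4 for SJL and 568.1 ± 32.3 for SWR (SD, n = 8). Its largest LFC, of SWR over B6, was 0.46 (FDR 8.1e-10). Zfp993, with 6.5 normalized counts on average and 66.1% of windows shared, reached -0.87 for SWR over B6 (FDR 0.025).

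Outside chromosome 4, the largest difference was that of Zfp960 (chromosome 17, 17064113 to 17089628), a 13-finger KRAB gene. Its normalized counts were 2.84 to 12.5 in SJL (median 6.91) against 47.2 to 93.6 in 129 (63.5), 43.9 to 76.3 in B6 (57.9) and 55.0 to 75.3 in SWR (68.4). SJL overlapped none of the other strains, and those overlapped each other. The LFC was -3.24 ± 0.179 for SJL over 129 (FDR 1.04e-16), -3.04 ± 0.182 for SJL over B6 and 3.21 ± 0.179 for SWR over SJL, the 1 call between SWR and SJL. Of its exon windows, 61.6% occurred in another gene, Zfp97, and Zfp97 was low in the same strain. It had 0 to 0.966 normalized counts in SJL, with 2 reads over the 8 libraries, against 61.9 to 94.1 in 129, 85.2 to 114 in B6 and 91.2 to 133 in SWR. The sum of both genes was 7.25 ± 3.07 in SJL, 143 ± 24.2 in 129, 155 ± 11.7 in B6 and 179 ± 13.9 in SWR (SD, n = 8).

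Zfp949 (chromosome 9, 88548020 to 88571061), with 11 fingers and no shared window, was the most abundant called member and separated SJL and SWR from B6 and 129. Its counts were 561 to 651 in SJL (median 597) and 576 to 754 in SWR (681), against 261 to 369.9 in 129 (313) and 255 to 301 in B6 (279.8). Neither SJL nor SWR overlapped 129 or B6. The LFC was 1.26 ± 0.0604 for SWR over B6 (FDR 1.62e-18), 1.10 ± 0.0606 for SJL over B6 and 1.08 ± 0.0594 for SWR over 129.

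Zfp972 (chromosome 2, 177903340 to 177925613), whose annotated product of 139 residues held no finger match, was the called member with the weakest separation. It had 2.03 to 19.3 normalized counts in B6 (median 8.68) and 0 to 5.45 in SJL (2.09), ranges that overlapped. The LFC of SJL over B6 was -2.04 ± 0.515 (FDR 0.00149). The 129 (1.09 to 12.8) and SWR (0 to 14.2) libraries overlapped both. The test against a fold change of 2 itself did not call it (FDR 0.158). Of the exon windows of Zfp972, 22.9% occurred in other genes, most often in Gm14392.

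**Figure D2:**
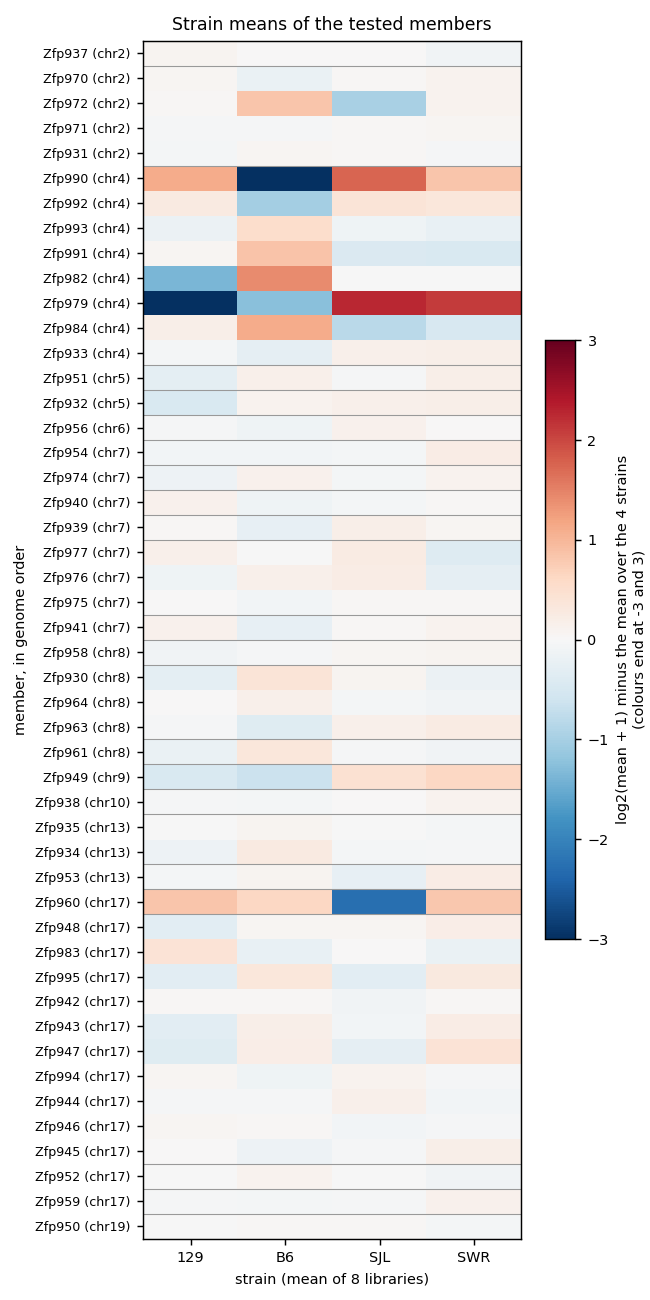
Difference of log2(mean normalized count + 1) in each strain from the mean over the 4 strains, for the 48 tested members in genome order with lines between runs, red for higher and blue for lower. The strong colours are at Zfp990, Zfp979, Zfp982 and Zfp960, and the run of 10 on chromosome 17 below Zfp960 is pale.

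The 39 members that were tested and not called had a largest absolute LFC between 0.09 and 0.87, with a median of 0.31, and 27 of them stayed below 0.5. The members that varied least were Zfp971, Zfp950 and Zfp975, with a largest absolute LFC of 0.09, 0.12 and 0.13. Zfp971 (chromosome 2, 12 fingers) had 234 ± 27.9 normalized counts for 129, 235 ± 22.1 for B6, 245 ± 18.8 for SJL and 250.1 ± 26.1 for SWR. Zfp950 (chromosome 19, 17 fingers) had 999.4 ± 91.0 for 129, 1031 ± 115 for B6, 1018 ± 83.7 for SJL and 955 ± 79.95 for SWR. Zfp975 (chromosome 7, 14 fingers) had 89.9 to 153 in 129, 80.2 to 141 in B6, 86.3 to 133 in SJL and 85.3 to 131 in the SWR libraries. The ranges of all strains overlapped for each of the 3 genes, and their FDR was between 0.15 and 0.98 in every pair.

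Levels of different members were compared per length, as normalized counts per kb of exon averaged over the 32 libraries. The tested members ran from 3.82 in Zfp934 to 209 in Zfp938, with a median of 38.8. Zfp938 (chromosome 10, 10 fingers) was followed by Zfp933 at 118, Zfp949 at 114, Zfp971 at 112 and Zfp958 at 111.5. The neighbours from Zfp933 to Zfp958 lay within a few counts per kb of each other. The place of Zfp949 depended on the strain, since its mean was 165 per kb in SWR and 147 in SJL but 77.4 in 129 and 68.2 in B6. Zfp938 had 429.5 ± 74.9 normalized counts for 129, 425 ± 45.6 for B6, 446 ± 43.7 for SJL and 475 ± 56.7 for SWR, and Zfp958 (chromosome 8, 13 fingers) had 244 ± 34.3, 257 ± 23.98, 273 ± 30.7 and 279.8 ± 35.4 in the same order (SD, n = 8). Neither passed the test in any pair, and the strain ranges of both overlapped throughout.

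**Figure D3:**
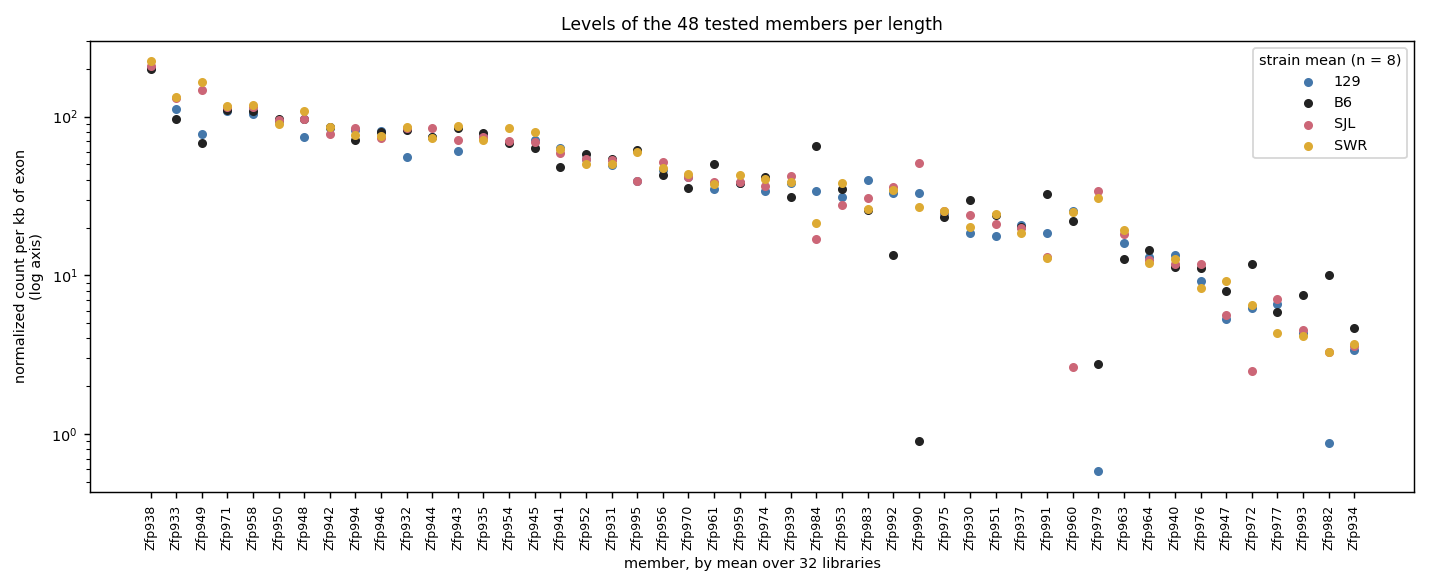
Strain means (n = 8) of normalized counts per kb of exon, on a log axis, for the 48 tested members ordered by their mean over the 32 libraries. The points of most members nearly coincide, while Zfp990 in B6, Zfp960 in SJL, and Zfp979 and Zfp982 in 129 fall far below the other strains.

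The 15 members that did not pass the filter had at most 25 reads in any library, and 2 of them, Zfp968 and Zfp969, had none in all 32. On chromosome 2 these were Zfp965 to Zfp969, of whose windows 74.9% to 100% occurred in another gene. On chromosome 4 they were Zfp978, Zfp980, Zfp981 and Zfp985 to Zfp989, and the others were Zfp936 and Zfp957. Only Zfp981 and Zfp985 reached 10 reads in a library. Zfp985, with 10 fingers and 0.2% of windows shared, had 0 to 5.46 normalized counts for 129, 0 to 8.78 for B6, 5.005 to 17.7 for SJL and 2.31 to 13.95 for SWR, and all of these ranges overlapped. Zfp981 had 0 to 5.77 for 129, 0 to 15.4 for B6, 0 to 3.94 for SJL and 0 to 2.70 for SWR.

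Reads on these 15 members were set beside the reads on families of other tissues, and no association was tested. The sum over the 15 members had a median of 0.610 rpm for 129, 1.93 for B6, 1.53 for SJL and 1.41 for SWR. Its highest values, 7.25 and 5.78, were in B6 replicates 8 and 4, which also had the most reads on the other families (30.2 and 32.5 rpm). Within 129 the order differed, with 1.24 rpm in replicate 3 (0.383 on the other families) and 0.631 in replicate 1 (1.74). What part those reads had in the strain medians was not tested.

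**Figure D4:**
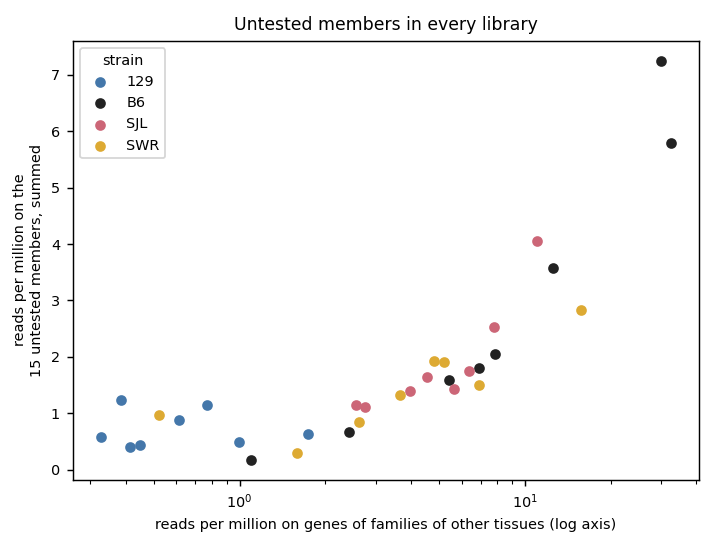
Summed rpm of the 15 members that failed the filter against rpm on 247 genes of families of other tissues (log axis), 1 point per library, coloured by strain. The 2 libraries at the upper right are B6 replicates 4 and 8, and the 129 libraries lie at the lower left.

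**Figure D5:**
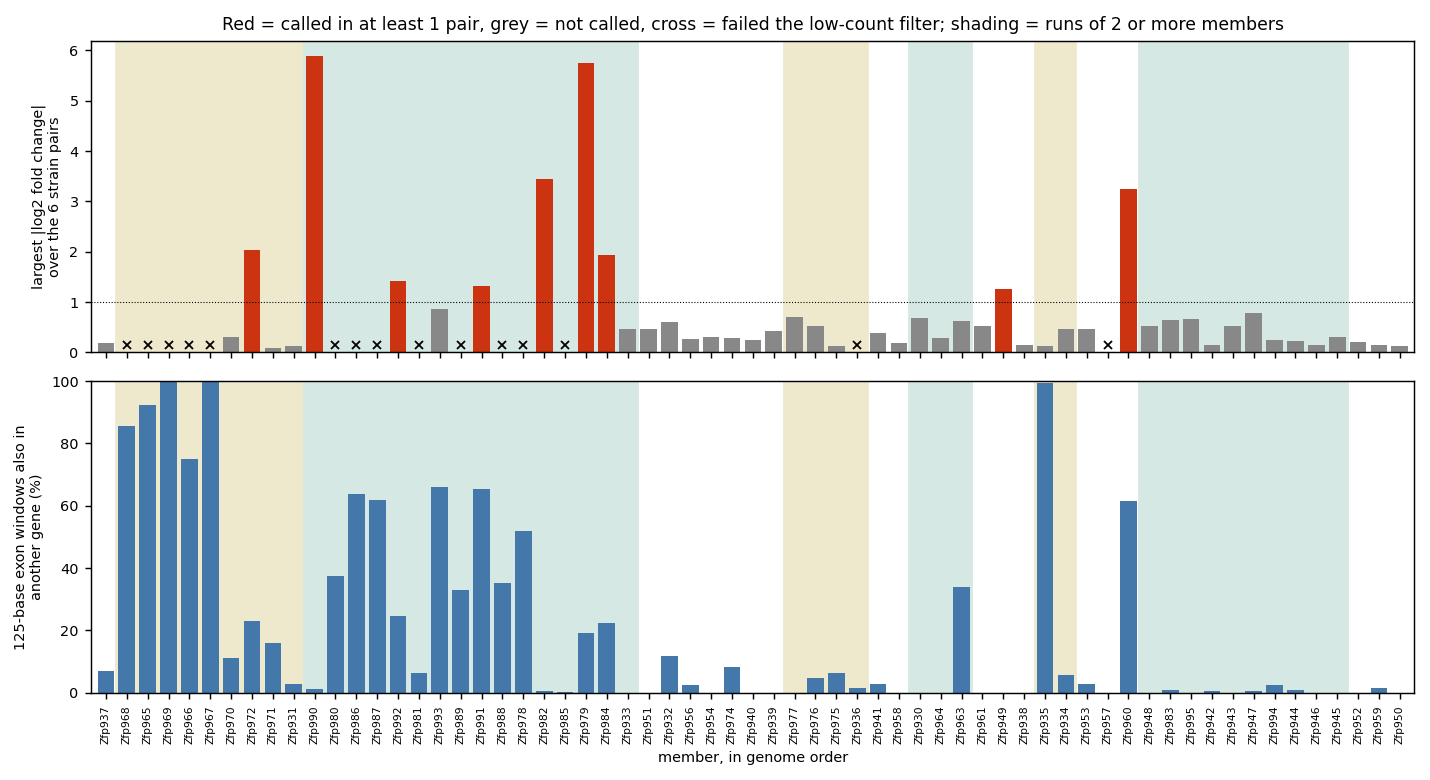
For all 63 members in genome order, the largest absolute LFC over the 6 pairs (upper bars, dotted line at the limit of 1) and the percentage of read-length exon windows that occur in another gene (lower bars), with shading for runs of 2 or more members. High shares are seen in the chromosome 2 and chromosome 4 runs, where most crosses for untested members also lie. The median share was 22.4% for called members (0 to 65.3%) and 0.655% for tested members that were not called. Zfp990 and Zfp982 were called at shares of 1.22% and 0.6%. What part shared sequence had in the calls was not tested.

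Males and females were compared to ask whether any member differs with sex. With 16 mice of each sex and strain as a term, edgeR called 0 of 48 members (fold above 2, FDR below 0.01), beside 0.0381% of all genes (7), and DESeq2 also called 0. The largest absolute LFC was 0.35 and the smallest FDR 0.551. An unadjusted p below 0.05 was found for 1 member, Zfp944, whose LFC of males over females was 0.08 (FDR 0.551), and for 1648 of all genes. The interaction of strain and sex called 0 members in edgeR and 0 in DESeq2, beside 0.0163% of all genes (3). There, 5 of 48 members and 1644 of all genes (8.94%) had an unadjusted p below 0.05, the lowest among members being Zfp984 (FDR 0.297).

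The co-repressor machinery through which KRAB proteins act was also examined. All 30 genes of that list were tested, edgeR and DESeq2 each called 0, beside 19.8% and 16.9% of all genes. An FDR below 0.05 in at least 1 pair was found for 26, beside 80.1% of all genes, and an unadjusted p below 0.05 for 28. The median of their largest absolute LFC was 0.24, beside 0.44 for all genes. Trim28, the co-repressor itself, had 1245 ± 104 normalized counts for 129, 988 ± 107 for B6, 1278 ± 87.8 for SJL and 1017 ± 56.5 for SWR. Setdb1, the methyltransferase it recruits, had 756 ± 27.6, 755 ± 52.6, 802 ± 41.8 and 734 ± 21.6 in the same order. The largest difference in the list was in Suv39h2, another histone methyltransferase, at 0.78 ± 0.180 (SE) for B6 over 129.

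Of 8 KRAB zinc finger genes with known targets, 6 were tested with edgeR and 1 was called, while DESeq2 called 3 of the 8 without the low-count filter. Zfp57, which guards imprinted regions, had 42.6 ± 6.83 normalized counts for 129, 36.3 ± 9.11 for B6, 14.3 ± 3.88 for SJL and 17.6 ± 4.57 for SWR (SD, n = 8), with an LFC of -1.56 ± 0.179 for SJL over 129 (FDR 8.45e-09). Zfp809, a repressor of retroviral sequences, stayed within 0.16 on the log2 scale. Among the 308 genes numbered Zfp1 to Zfp899, 289 were tested and 20 (6.92%) were called, with a median largest absolute LFC of 0.28, beside 18.8% and 0.46 for Zfp900 to Zfp999. This difference between the number ranges is a description without a test, and 6 of the 9 called members came from 1 run.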

How the data were processed

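Libraries were made from ribosome-depleted RNA with a stranded kit and read as 125-base pairs. Per the study's methods, reads were trimmed with Trim Galore and aligned by the authors with STAR 2.5.2b to GRCm38 with Ensembl 87, and the deposited counts are reads per gene on the reverse strand, of uniquely placed pairs. The authors also deposited counts divided by DESeq2 size factors, a signal that is here called the normalized count. Positions, exons and coding sequences came from GENCODE M21 of the same build.

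Strains were compared with edgeR 4.0.16 (TMM, low-count filter over the 8 combinations of strain and sex, 1 fit of 32 libraries with sex as a term, Benjamini-Hochberg FDR over 18382 genes). DESeq2 1.42.0, other filters, a lane block, a covariate and libraries left out served as alternatives. Counts were also simulated for the 32 libraries and 18382 genes, with 200 genes changed in B6, and 18056 genes passed the filter. Of the 200, 196 passed and were called between B6 and 129, as were 2 unchanged genes. Replicate numbers were given in accession order and follow the lane named in the library descriptions, 2 libraries of each strain per lane, and this lane was the block.

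The members and lists were chosen with earlier results of these data known. Values were given for all called members, the 5 with most counts per kb, the 3 most even and those with 10 reads that failed the filter. Nothing in the labels ties a library to a litter or day, so p-values measure the spread between mice as sampled. Protein identity to other zinc finger genes was not run here, and coding sequences were compared instead.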

Additional observations from a re-analysis of the deposited data

Results flagged for a closer look

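A library far from the other 7 of its strain was seen in 3 of 72 checks (Dixon's criterion), when about 5% are flagged by chance. The normalized count of Zfp979 in SWR replicate 4, a female, was 100.2 with the next value at 119.7. This library also had the most reads on families of other tissues among SWR libraries (15.7 rpm). The normalized count of Zfp982 in 129 replicate 2, a female, was 3.49 with the next at 1.19, and it rests on 3 reads. The normalized count of Zfp958 in 129 replicate 7, a male, was 321 with the next at 262.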

How the results depend on the processing

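Of members called in at least 1 pair, the number was 9 with DESeq2 size factors, with the lane as a block, with the background covariate and without the 5 libraries highest in background, and 11 without B6 replicate 2 and 129 replicate 1 (both sets were chosen after the data were seen). The shares of all genes called in these fits were, in the same order, 19.7%, 19.5%, 17.2%, 19.7% and 21.8%. With each library left out in turn the number of members ran from 9 to 11, beside 3677 to 4069 of all genes. For SWR against SJL it ran from 1 to 2 (2 without SWR replicate 2). The block was the lane number, since no pairing of mice was stated. DESeq2's test called 17 members and 7607 genes, and the edgeR test without the filter 17 and 12873. In each, 8 of the 17 were members that had failed the filter. FDR alone called 35 and 14718, and the test against a fold of 2 called 7 and 1659. By pair, DESeq2 called 10 members for B6 against 129 (11.7% of all genes) and 7 for SJL against 129 (6.22%). Without the filter these were 10 (22.3%) and 11 (9.97%), and 7 for SWR against 129 (7.46%). FDR alone called 24 (52.8%), 14 (38.3%) and 16 (41.8%) against 129 for B6, SJL and SWR, 25 (45.7%) and 19 (40.9%) against B6 for SJL and SWR, and 14 (32.5%) between SWR and SJL. The test against a fold of 2 called 2 for SJL (3.63%) and 1 for SWR (3.57%) against 129 and 5 for SJL against B6 (3.65%), and it did not call Zfp972 or Zfp991 (FDR 0.158 and 0.0849). Females alone gave 1 for SWR against 129 (6.84%), and males alone 2 for SWR against SJL (4.18%). The cause of these shifts was not tested. Sex and interaction calls were 0 in every alternative run. A gap of 2 Mb gave 24 runs in place of 25. The 15 members under the filter had 0 to 25 reads per library, which limits the precision of any comparison of them.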
